A study of Mus musculus with 4 samples.

Results

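A total of 10 genes for milk proteins and for the secretion of milk were examined in 4 mouse mammary tumor cell lines. The genes were chosen by symbol (Wap, Csn2, Csn3, Lalba, Glycam1, Ltf, Btn1a1, Xdh, Muc1 and Mfge8), and all 10 were found among the 38713 genes of the deposited expression table. The lines were derived from mammary tumors of parous female mice (C57BL/6 in the labels, C57BL6/J in the methods of the study) and each gave 1 library. The 2 JNK_WT lines (labelled p53-/-) came from mice with Wap-Cre and floxed Trp53 alleles. The 2 JNK_KO lines (labelled p53-/- JNK-/-) came from mice that had, besides Wap-Cre and floxed Trp53, floxed alleles of the JNK genes Mapk8 and Mapk9. Wap-Cre and the floxed Trp53 alleles were thus shared by both groups. The lines are named here by genotype and replicate number, as WT-1 and WT-2 for JNK_WT and KO-1 and KO-3 for JNK_KO. Each line represents 1 tumor grown in culture. The medium given in the methods of the study held serum, and no normal gland or lactating gland was among the 4 samples.

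The milk proteins are made by the luminal (alveolar) cells of the mammary gland in late pregnancy and lactation. Prolactin binds its receptor on these cells, the kinase JAK2 then activates the transcription factor STAT5, and STAT5 acts with the glucocorticoid receptor and the factor ELF5 on the milk protein genes. The caseins are assembled into micelles, the whey proteins are secreted in solution, and the fat leaves the cell as droplets wrapped in a membrane that carries butyrophilin, xanthine oxidoreductase, lactadherin and mucin 1. Because the promoter of Wap is active in lactating mammary epithelium, it was used in these mice to drive the recombinase.

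The sequences before the start of Wap, Csn2 and Glycam1 are shown because Wap gave the driver of the recombinase, and because Csn2 and Glycam1 were each far higher in a single line. They were read from RefSeq (GRCm38.p6), 5′ to 3′ on the strand of the gene. For Wap and Glycam1 they cover the 250 bases before the RefSeq start, and for Csn2 the 29 bases around the motif. Capitals mark the motif TTCNNNGAA, the binding sequence known for STAT5, which reads the same on both strands. The Wap sequence lies at chr11:6638650-6638899, that of Csn2 at chr5:87699500-87699528 and that of Glycam1 at chr15:103565082-103565331, all on the minus strand. The sequence for Wap is that of the gene itself, and the length of promoter in the Wap-Cre transgene was not examined.
Wap: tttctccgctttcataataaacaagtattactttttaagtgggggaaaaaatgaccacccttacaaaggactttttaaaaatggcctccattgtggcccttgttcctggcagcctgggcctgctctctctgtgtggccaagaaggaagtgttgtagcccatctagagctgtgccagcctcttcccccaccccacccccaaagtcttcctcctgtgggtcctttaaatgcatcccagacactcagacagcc
Csn2: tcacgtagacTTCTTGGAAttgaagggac
Glycam1: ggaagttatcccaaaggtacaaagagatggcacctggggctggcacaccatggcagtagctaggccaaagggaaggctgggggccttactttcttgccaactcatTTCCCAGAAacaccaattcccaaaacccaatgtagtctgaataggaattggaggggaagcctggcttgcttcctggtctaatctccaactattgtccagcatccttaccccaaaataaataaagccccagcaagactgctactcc
A sequence entry was found for 7 of the 10 genes, and Csn3, Btn1a1 and Xdh had none. The motif was present in the entries of 2 of these 7 genes, Csn2 (TTCTTGGAA, beginning 93 bases before the RefSeq start) and Glycam1 (TTCCCAGAA, beginning 145 bases before the start). The GENCODE span given for Csn2 begins 205 bases upstream of the RefSeq start used here, so that the Csn2 motif lies before the start in RefSeq and within the 5′ UTR of a longer GENCODE transcript. It was present in 8.3% of the 32851 windows of the same length (300 bases, from 250 before to 50 after the start) over all genes. It was not found in the windows of Wap, Lalba, Ltf, Muc1 or Mfge8. A match of these letters is a description and not a measured binding site.

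Expression was given as FPKM, the fragments assigned to a gene scaled to its exon length and to the mapped fragments of the library. The table holds no read counts and the methods of the study give an average number of sampled reads but none per library, so that values near 0 carry no counting interval. The 4 libraries were similar in scale, with upper quartiles between 33.2 and 34.3 FPKM over the 12998 genes tested. The genes floxed in the JNK_KO mice alone were lower in both JNK_KO libraries. Mapk8 was at 19.1 to 23.9 FPKM in the JNK_WT lines and 4.27 to 4.30 FPKM in the JNK_KO lines, and Mapk9 was at 24.3 to 29.7 FPKM and 8.66 to 12.6 FPKM. Trp53, floxed in both groups and labelled as lost in both, was at 1.55 FPKM in WT-1, 4.15 in WT-2, 5.72 in KO-1 and 4.28 in KO-3. It was above 1 FPKM in every line, lowest in WT-1 and highest in KO-1, with WT-2 and KO-3 close together. Values for a whole gene do not show whether the floxed exons were among its reads. All 8 luminal epithelial markers examined, including Krt8, Epcam and Cdh1, were above 1 FPKM in every library. Adipocyte markers (0 of 5 above 1 FPKM) and endothelial markers (0 of 4) were not found at that level in any library. All 15 housekeeping genes examined were at 22.2 FPKM or more in each library, and none was listed at 0. In RNA from a whole culture, fewer cells that express a gene and less RNA per cell cannot be told apart.

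Wap and Lalba were at or near 0 in all lines, while Csn2, Csn3 and Glycam1 were each above 1 FPKM in a single line. Ltf, Btn1a1, Xdh, Muc1 and Mfge8 were above 1 FPKM in several lines, and Mfge8 was the most abundant gene of the 10 in WT-1 and in both JNK_KO lines. WT-1 had 4 of the 10 genes above 1 FPKM, WT-2 had 5, KO-1 had 5 and KO-3 had 7. The lines thus differed in which of the milk genes they expressed, as the plot of the 10 genes by library shows.

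**Figure D1:**
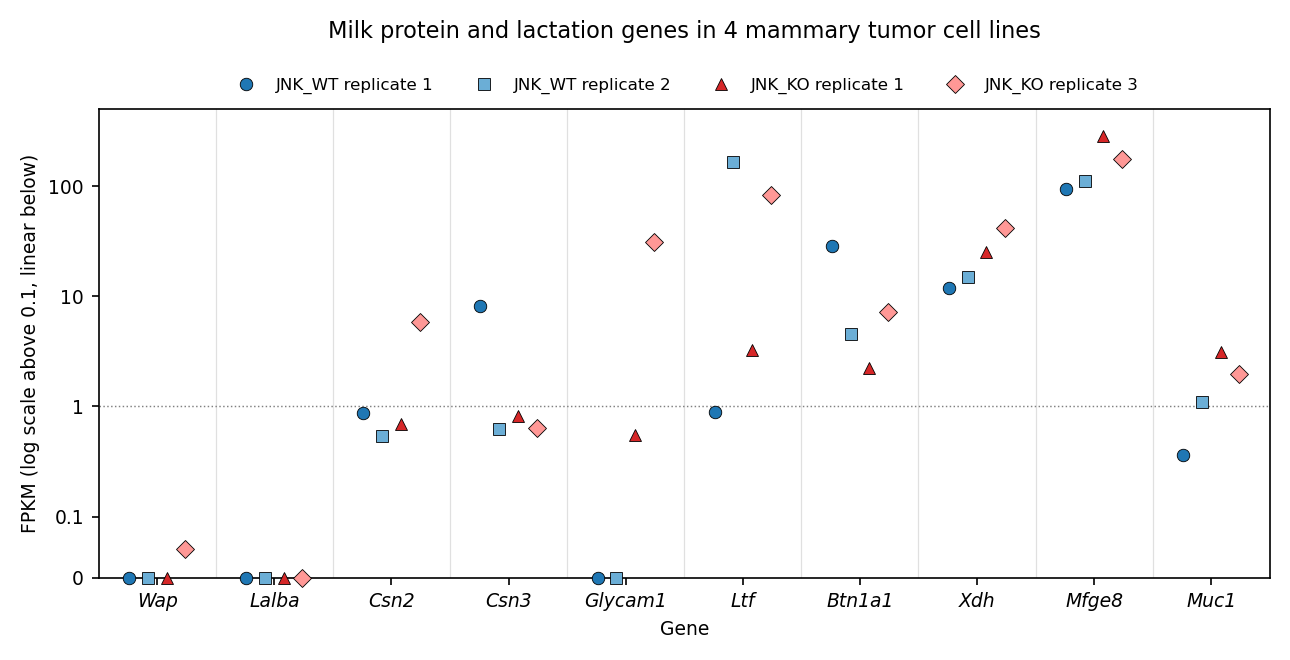
FPKM of the 10 genes (vertical axis, logarithmic above 0.1 and linear below) in each of the 4 libraries, with 1 symbol per library and a dotted line at 1 FPKM. Wap and Lalba lie at or near 0, Csn2, Csn3 and Glycam1 each have 1 library above 1 FPKM, and for Xdh, Mfge8 and Muc1 both JNK_KO symbols lie above both JNK_WT symbols.

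Wap encodes whey acidic protein, a major whey protein of rodent milk (GRCm38 chromosome 11, 6635482 to 6638637, minus strand). It was listed at 0 in both JNK_WT libraries and in KO-1, and at 0.0471 FPKM in KO-3. Of the 105 single-transcript coding genes within 10% of its exon length that were above 0 in that library, 29 were lower. The gene whose promoter drove the recombinase in the animals was thus listed at 0 in 3 of the 4 cultured lines. Lalba (chromosome 15, 98480400 to 98482721, minus strand) encodes α-lactalbumin, which combines with the galactosyltransferase B4GALT1 to make lactose. It was listed at 0 in all 4 libraries.

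Csn2 (chromosome 5, 87692624 to 87699630, minus strand) encodes β-casein, and it was at 0.869 FPKM in WT-1, 0.545 in WT-2, 0.698 in KO-1 and 5.88 in KO-3. KO-3 alone was high, 6.77 times the next library, and the other JNK_KO line lay between the JNK_WT lines. Csn3 (chromosome 5, 87925579 to 87932665, plus strand) encodes κ-casein, which coats the casein micelle. It was at 8.23 FPKM in WT-1, 0.631 in WT-2, 0.826 in KO-1 and 0.638 in KO-3. Here WT-1 alone was high, 9.96 times the next library. The 2 casein genes lie on the same chromosome within the casein cluster, and they were high in different lines of different genotype. Csn3 overlaps the span of an antisense gene, 1700066N21Rik, with no shared exon in the GENCODE annotation.

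Glycam1 (chromosome 15, 103562759 to 103565081, minus strand) encodes a mucin-like glycoprotein that is secreted into milk. It was listed at 0 in both JNK_WT libraries, and was at 0.548 FPKM in KO-1 and 30.9 FPKM in KO-3. The groups did not overlap, but KO-3 was 56.4 times KO-1. KO-3 was also the line highest in Csn2 and the only line in which Wap was above 0. Of the 8 genes among the 10 with at least 1 FPKM in any library, Csn2, Csn3 and Glycam1 (3 genes) had a highest library over 5 times the next. The same was true of 5.63% of the 14380 genes with at least 1 FPKM in any library. The ratio of 5 was chosen after the values were seen, and the comparison is given with no test.

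Ltf (chromosome 9, 111019271 to 111042767, plus strand) encodes lactoferrin, an iron-binding whey protein that is also stored in the granules of neutrophils. It was at 0.884 FPKM in WT-1, 166 in WT-2, 3.25 in KO-1 and 83.3 in KO-3. One line of each genotype was high and the other was low, so the groups overlapped and the highest value was 188 times the lowest. A range of over 50 times was seen in 4.93% of the genes tested. Of 8 neutrophil markers only S100a8 was above 1 FPKM in any library. Mpo, Camp and Ngp were under 1 FPKM throughout and Elane was listed at 0 in all 4. The neutrophil markers summed to 3.07 FPKM in WT-1, 3.92 in WT-2, 12.1 in KO-1 and 9.47 in KO-3. Their part in the levels of Ltf was not tested.

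Among the genes of the milk fat globule membrane, Btn1a1 (chromosome 13, 23456992 to 23465901, minus strand) encodes butyrophilin, a membrane protein needed for the release of fat droplets. It was at 28.9 FPKM in WT-1, 4.59 in WT-2, 2.24 in KO-1 and 7.25 in KO-3. WT-1 was the highest, as it was for Csn3, and the other JNK_WT line lay between the JNK_KO lines. Xdh (chromosome 17, 73883895 to 73950196, minus strand) encodes xanthine oxidoreductase, a purine-degrading enzyme that also binds butyrophilin at the membrane. It was at 12.0 FPKM in WT-1, 15.1 in WT-2, 25.5 in KO-1 and 41.4 in KO-3. Both JNK_KO lines were above both JNK_WT lines. Xdh overlaps the span of CT025731.2, a gene on the same strand, with no shared exon in the GENCODE annotation.

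Mfge8 (chromosome 7, 79133768 to 79149060, minus strand) encodes lactadherin, which coats milk fat globules and also bridges phagocytes to dying cells. It was at 94.3 FPKM in WT-1, 112 in WT-2, 287 in KO-1 and 176 in KO-3. It made up 64.8% and 37.2% of the summed FPKM of the 10 genes in the JNK_WT lines and 88.8% and 50.7% in the JNK_KO lines. Muc1 (chromosome 3, 89229057 to 89233381, plus strand) encodes a mucin of the apical surface of epithelial cells. It was at 0.359 FPKM in WT-1, 1.11 in WT-2, 3.11 in KO-1 and 1.96 in KO-3. For Mfge8 and Muc1, as for Xdh, the groups did not overlap. The order of the 4 libraries was the same for Mfge8 and Muc1, with KO-1 the highest, whereas Xdh was highest in KO-3.

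To ask whether the loss of JNK altered these genes, JNK_KO was compared with JNK_WT on log2(FPKM + 1) with limma, over all 12998 genes with at least 1 FPKM in at least 2 libraries. A total of 5 of the 10 genes passed this filter (Ltf, Btn1a1, Xdh, Muc1 and Mfge8). Calls required a limma adjusted p-value under 0.05 and an absolute log2 difference over 0.75. None of the 5 passed, and 0 genes of the table did (0.0%), while 992 genes (7.63%) had an unadjusted p-value under 0.05. In a separate limma fit of all 38713 genes without the filter, 2037 genes (5.26%) had an unadjusted p-value under 0.05. Of the 5 genes, 2 had an unadjusted p-value under 0.05 (Xdh and Mfge8). Other settings called up to 25 genes of the table, none of them among the 10.

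Xdh had a log2 difference of 1.21 (SE 0.34, limma adjusted p-value 0.486 and unadjusted 0.0202), from 13.5 ± 2.23 FPKM in JNK_WT to 33.5 ± 11.3 FPKM in JNK_KO (mean ± SD, n = 2 each). Mfge8 had a log2 difference of 1.13 (SE 0.32, limma adjusted p-value 0.489 and unadjusted 0.0208), with means of 103 ± 12.2 FPKM and 232 ± 78.0 FPKM (SD, n = 2 each). Muc1 had a log2 difference of 1.04 (SE 0.39, limma adjusted p-value 0.655 and unadjusted 0.0505), with means of 0.734 ± 0.530 FPKM and 2.54 ± 0.815 FPKM (SD, n = 2 each). For these genes the difference between genotypes exceeded the log2 difference between lines of 1 genotype, which was at most 0.68 for Xdh, 0.70 for Mfge8 and 0.63 for Muc1. Since the groups of these genes did not overlap, the difference had to stay above 0 without any single library. It then lay between 0.87 and 1.55 for Xdh, 0.78 and 1.47 for Mfge8, and 0.73 and 1.36 for Muc1.

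Btn1a1 had a log2 difference of -1.32 (SE 0.97, limma adjusted p-value 0.930), which became -0.11 when WT-1 was left out, -2.53 for WT-2, -0.65 for KO-1 and -1.99 for KO-3. Ltf had a log2 difference of 0.09 (SE 2.61, limma adjusted p-value 0.999). Its direction turned on single lines, at -3.14 when WT-1 was left out, 3.33 for WT-2, 2.25 for KO-1 and -2.06 for KO-3, and it was -0.0048 under quantile normalization. For both genes the lines of a genotype were farther apart than the genotypes, at 2.42 (JNK_WT) and 1.35 (JNK_KO) on the log2 scale for Btn1a1 and at 6.47 and 4.31 for Ltf.

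**Figure D2:**
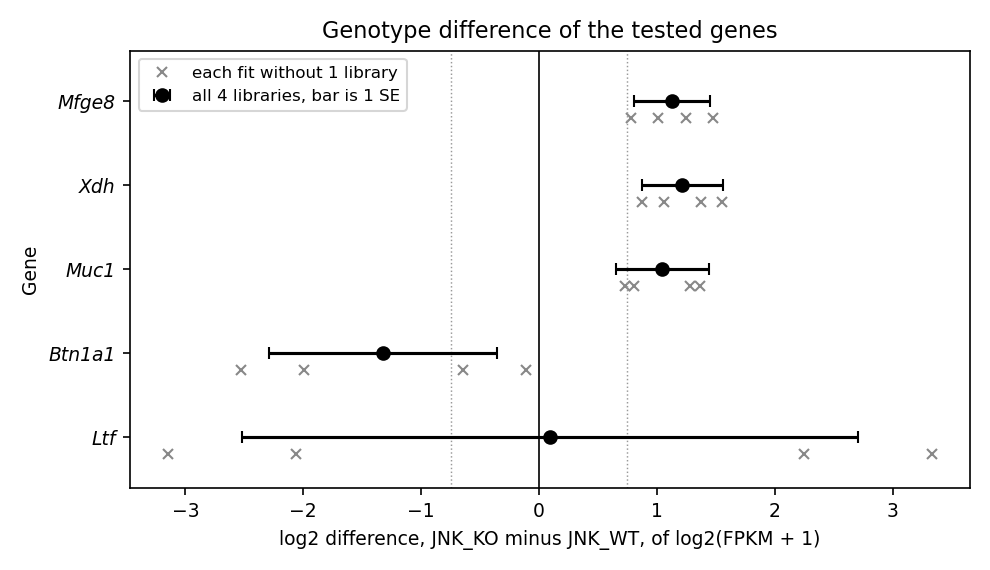
Log2 difference (JNK_KO minus JNK_WT, horizontal axis) of the 5 tested genes from limma, with a bar of 1 SE, and a cross for each of the 4 fits that left out 1 library. Dotted lines mark a difference of 0.75 in either direction. The crosses of Mfge8, Xdh and Muc1 all lie above 0, as they must where the groups do not overlap, and those of Ltf lie on both sides of 0.

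Over all 10 genes, the groups did not overlap for 4 (Glycam1, Xdh, Muc1 and Mfge8), each higher in JNK_KO cells. Groups did not overlap for 35.0% of the tested genes, 18.3% with JNK_KO higher and 16.7% lower, and for 20.9% of all 38713 genes without a filter, 11.9% higher and 8.98% lower. The absolute log2 difference of the means was over 0.75 for 7 of the 10 genes, 5 higher and 2 lower in JNK_KO cells, beside 15.7% of tested genes (9.25% higher, 6.43% lower) and 6.96% of all genes (4.1% higher, 2.86% lower). The size for Glycam1 depends on the pseudocount, since it was listed at 0 in both JNK_WT lines. Of these 7 differences, those of Csn2, Csn3, Btn1a1 and Glycam1 came with a single line that was far above the rest. The sum of 4 fibroblast markers also differed by genotype, at 11.6 FPKM in WT-1, 1.33 in WT-2, 106 in KO-1 and 173 in KO-3. Most of the sum was Dcn in the JNK_KO lines and Col1a2 in WT-1. Pdgfra was, like Dcn, higher in both JNK_KO lines, at 0.325 FPKM in WT-1, 0.183 in WT-2, 24.7 in KO-1 and 7.82 in KO-3. Col1a2 was at 10.3 FPKM in WT-1, 0.374 in WT-2, 0.698 in KO-1 and 2.56 in KO-3. Col1a1 was under 1 FPKM in all libraries. The 8 luminal markers summed to 4063 FPKM in WT-1, 3138 in WT-2, 1313 in KO-1 and 2768 in KO-3. The part of these shifts in the differences of Xdh, Muc1 and Mfge8 was not tested. The leukocyte markers summed to 21.99 FPKM in WT-1, 3.62 in WT-2, 3.02 in KO-1 and 9.69 in KO-3, nearly all of it Cd68 and Csf1r, and Ptprc (CD45) was at most 0.0134 FPKM. Their part in the levels of Mfge8, which phagocytes also express, was not tested.

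The other genes of lactation were examined through 4 lists. A total of 48 genes were listed, 34 passed the filter and 0 were called, while 4 had an unadjusted p-value under 0.05 (Scd1 and B4galt1 higher, Acly and Srebf1 lower in JNK_KO cells), beside 7.63% of all tested genes. The median log2 difference of the 34 genes was 0.25, beside 0.01 over all tested genes. Groups did not overlap for 12 of the 34, of which 8 were higher and 4 lower in JNK_KO cells, beside 35.0% of all tested genes.

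Of 10 other genes for secreted milk proteins, 4 were tested (Wfdc18, Trf, Spp1 and Lcn2), and groups overlapped for all 4. The median log2 difference was 0.95, which became -0.95 without WT-1. The α-casein gene Csn1s1 was at 0.0170 FPKM in WT-1, 0.0281 in WT-2, 0.178 in KO-1 and 2.67 in KO-3, so that KO-3 was the highest, as for Csn2. Csn1s2a was listed at 0 throughout and Csn1s2b was at 0.0136 FPKM in KO-3 and listed at 0 in the others. Spp1 (osteopontin) was the most abundant of the list, at 722 FPKM in WT-1, 3297 in WT-2, 2086 in KO-1 and 1913 in KO-3. Lcn2 (lipocalin 2, which binds iron-carrying siderophores) was at 59.1 FPKM in WT-1, 1892 in WT-2, 642 in KO-1 and 1100 in KO-3. Trf (transferrin, the iron carrier) had the largest difference of this list, 1.78 (SE 1.70, limma adjusted p-value 0.973), with 124 FPKM in WT-1, 6.22 in WT-2, 286 in KO-1 and 36.3 in KO-3.

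The lines that were high in Ltf shared further genes, which were singled out after their values were seen. Wfdc18, a small secreted protein related to whey acidic protein, was at 0.246 FPKM in WT-1, 85.6 in WT-2, 1.07 in KO-1 and 116 in KO-3. Elf5, the alveolar transcription factor, was at 0.158 FPKM in WT-1, 12.4 in WT-2, 0.5004 in KO-1 and 13.5 in KO-3. Prlr, the prolactin receptor, was at 0.636 FPKM in WT-1, 6.04 in WT-2, 1.49 in KO-1 and 12.7 in KO-3. For all of these WT-2 and KO-3 were the highest lines, and the same lines were highest in the keratin gene Krt14, at 443 and 313 FPKM against 7.34 and 26.7 FPKM in the other lines. The 8 basal and myoepithelial markers, of which Krt14 is 1, summed to 26.1 FPKM in WT-1, 734 in WT-2, 38.3 in KO-1 and 376 in KO-3, most of it Krt14 in WT-2 and KO-3, with Myh11 and Oxtr under 1 FPKM throughout. WT-2 and KO-3 were also the highest lines for Krt5, Krt17, Trp63 and Cnn1, but not for Acta2, Myh11 and Oxtr. Krt5 was at 61.9 FPKM in WT-2 but 0.205 in KO-3. Krt17 was at 202 FPKM in WT-2 and 26.7 in KO-3, against 11.0 in WT-1 and 8.14 in KO-1. Acta2 was at 7.36 FPKM in WT-1, 3.19 in WT-2, 1.70 in KO-1 and 29.0 in KO-3. The part of the basal and myoepithelial markers in the levels of Ltf, Wfdc18, Elf5 and Prlr was not tested. WT-2 had Elf5 at 12.4 and Prlr at 6.04 FPKM, while its Csn2 was at 0.545 FPKM and its Glycam1 was listed at 0.

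**Figure D3:**
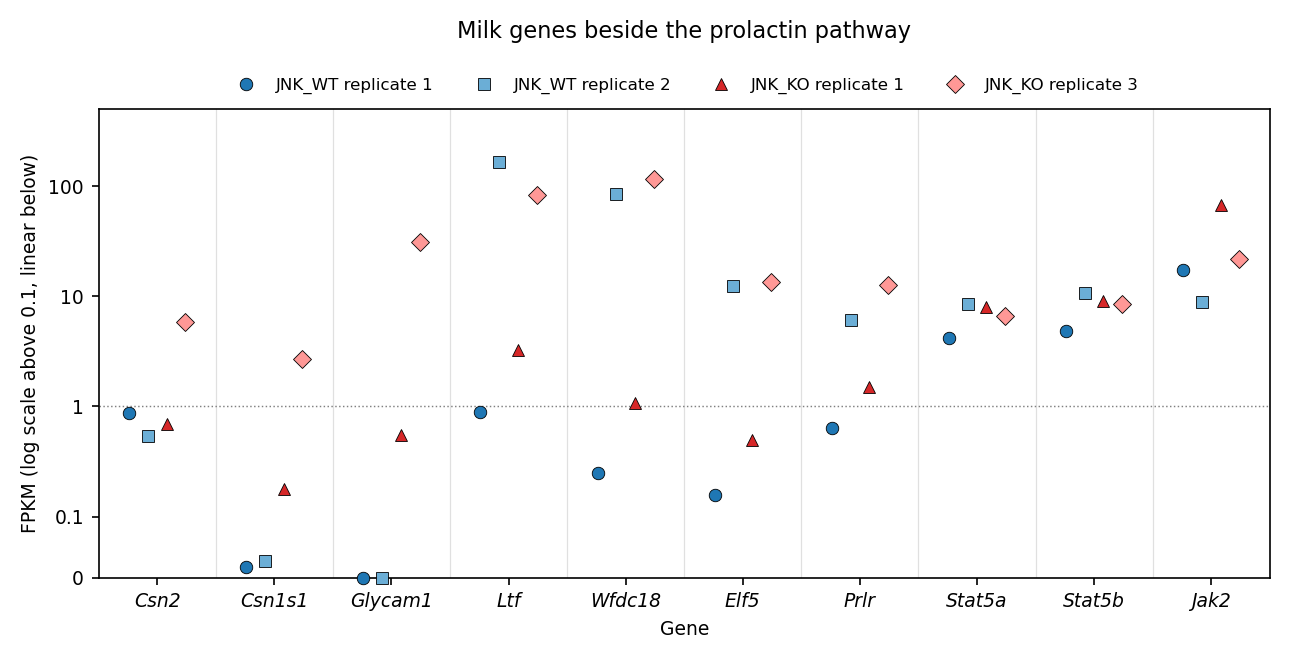
FPKM of milk genes (Csn2, Csn1s1, Glycam1, Ltf, Wfdc18) and of genes of the prolactin pathway (Elf5, Prlr, Stat5a, Stat5b, Jak2) in each library (vertical axis logarithmic above 0.1 and linear below, dotted line at 1 FPKM). WT-2 and KO-3 are the highest for Ltf, Wfdc18, Elf5 and Prlr, KO-3 is the highest for Csn2, Csn1s1 and Glycam1, and Stat5a and Stat5b lie between 4.18 and 10.7 FPKM.

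All 10 genes of the prolactin and STAT5 pathway passed the filter, and all 10 had a log2 difference above 0, with a median of 0.41, while 6680 of all 12998 tested genes were above 0. Groups did not overlap for 2 of the 10, Jak2 and the glucocorticoid receptor gene Nr3c1, both higher in JNK_KO cells. This was so for 35.0% of all tested genes, 18.3% with JNK_KO higher. The median was -0.13 without WT-1 and 0.95 without WT-2. Stat5a ranged from 4.18 to 8.51 FPKM and Stat5b from 4.82 to 10.7 FPKM, both lowest in WT-1 and highest in WT-2. Jak2 had the largest difference, 1.56 (SE 0.66, limma adjusted p-value 0.713), with 17.3 FPKM in WT-1, 8.84 in WT-2, 67.9 in KO-1 and 21.6 in KO-3. The most abundant were Cebpb, at 66.5 FPKM in WT-1, 217 in WT-2, 165 in KO-1 and 270.01 in KO-3, and Nfib, at 25.4 FPKM in WT-1, 57.3 in WT-2, 53.1 in KO-1 and 57.1 in KO-3. Both encode transcription factors that act in mammary epithelium.

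Among 16 genes of milk fat synthesis and the fat droplet, 11 were tested, with a median log2 difference of -0.09. Scd1, the stearoyl-CoA desaturase, was at 47.0 FPKM in WT-1, 57.1 in WT-2, 165 in KO-1 and 328 in KO-3, a log2 difference of 2.15 (SE 0.40, limma adjusted p-value 0.295). Its relative Scd2 was at 220 FPKM in WT-1, 161 in WT-2, 153 in KO-1 and 133 in KO-3, a difference of -0.40 in the opposite direction. The groups of both genes did not overlap. Olah, the thioesterase that ends fatty acid chains at medium length in lactating gland, was at 0 or up to 0.0226 FPKM, and Thrsp, Cidea, Fabp3 and Cd36 were under 1 FPKM in all libraries. All 5 adipocyte markers were at most 0.0565 FPKM.

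Of 12 genes of lactose synthesis and milk transport, 9 were tested, with a median log2 difference of -0.17. B4galt1, the partner of α-lactalbumin, was at 20.7 FPKM in WT-1, 20.7 in WT-2, 37.0 in KO-1 and 41.7 in KO-3, a log2 difference of 0.89 (SE 0.23, limma adjusted p-value 0.458). Lalba, by contrast, was listed at 0 in all 4 libraries. The glucose transporter gene Slc2a1 was at 44.0 FPKM in WT-1, 73.3 in WT-2, 48.9 in KO-1 and 42.0 in KO-3, and Ugp2, which makes UDP-glucose, was at 33.5 FPKM in WT-1, 54.6 in WT-2, 39.1 in KO-1 and 54.3 in KO-3, both with overlapping groups. Slc5a5, the iodide transporter of lactating gland, had the largest absolute difference, -1.45 (SE 1.73, limma adjusted p-value 0.985). It was at 28.9 FPKM in WT-1, 0.0877 in WT-2, 0.120 in KO-1 and 2.90 in KO-3. WT-1, which was also the highest line for Csn3 and Btn1a1, was the highest for Slc5a5.

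**Figure D4:**
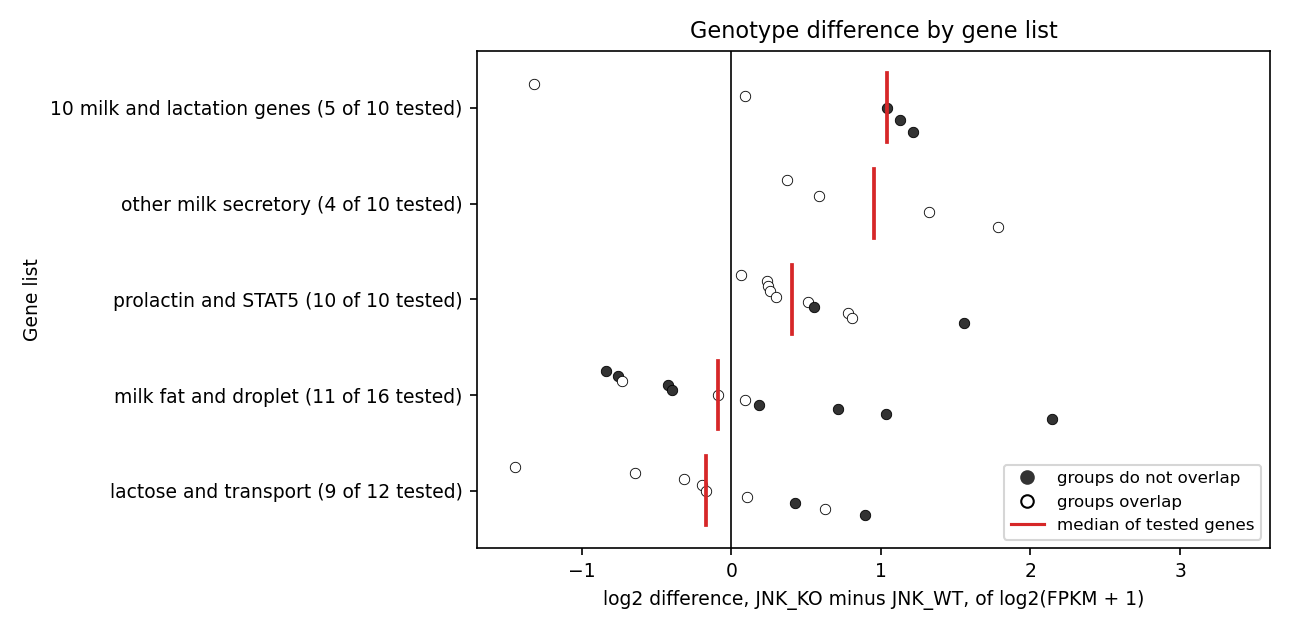
Log2 difference (JNK_KO minus JNK_WT, horizontal axis) of each tested gene in the 10 milk and lactation genes and in 4 further lists, with filled circles where the groups do not overlap, open circles where they do, and a red bar at the median of the tested genes. All 10 prolactin and STAT5 genes lie above 0, as did 6680 of all 12998 tested genes, and the genes of milk fat and of lactose and transport lie on both sides of 0.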

How the data were processed

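RNA was sequenced from 4 tumor cell lines, 2 JNK_WT and 2 JNK_KO. The methods of the study give trimming with Trimmomatic, and sampling with seqtk for a comparison that took in other cell groups. They do not state whether the deposited values came from sampled reads. The authors aligned the single-end reads to mm10 with Bowtie2 and TopHat2 2.0.14, and deposited FPKM per gene and library, estimated with Cufflinks 2.2.1. The annotation they used is not given in the sources used here. Cufflinks divides reads between overlapping transcripts by an estimate.

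Of 38741 rows, 27 with symbols turned into dates and 1 without values were dropped, and 38713 genes remained. Positions and exon lengths came from GENCODE M21 (GRCm38), and sequences from RefSeq (GRCm38.p6). For the lists, 1 gene was matched by an older symbol.

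JNK_KO was compared with JNK_WT on log2(FPKM + 1), which understates the change of low genes, with limma 3.58.1 in R 4.3.3 (intensity trend, two-sided, Benjamini-Hochberg over the 12998 genes with at least 1 FPKM in at least 2 libraries). Calls needed an adjusted p-value under 0.05 and an absolute log2 difference over 0.75. No count model was fitted, because FPKM are not counts. The fit was tested on simulated data, and with 2 lines per group an absence of calls does not show an absence of differences. The 10 genes and the lists were chosen with earlier results of these data known. All 10 genes are named. From each other list the pair of genes with the highest mean, the gene with the largest absolute difference and any called gene are named, and the rest were picked after their values were seen. An exact permutation test of 2 lines against 2 cannot give a p-value under 0.333. The limma p-values set each difference against the spread between these lines, with the variance of each gene drawn toward a trend over the tested genes. The alternatives were other pseudocounts, filters, scalings, moderation settings and thresholds, and leaving out each library. Figures were drawn with matplotlib 3.10.9.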

Additional observations from a re-analysis of the deposited data

How the results depend on the processing

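No paired analysis was run, because neither the labels nor the methods of the study pair a JNK_WT line with a JNK_KO line. The count of genes called over the whole table, 0, was 10 and 14 when 0.1 and 0.5 were added to FPKM in place of 1, 14 when limma was run with no intensity trend, and 25 when the adjusted p-value threshold was 0.1. The cause was not tested. None of the 10 milk genes was called in any fit. Across the settings other than leaving out a library, the log2 difference ranged from 1.20 to 1.27 for Xdh, 1.11 to 1.18 for Mfge8, 0.78 to 1.79 for Muc1 and -1.49 to -1.32 for Btn1a1, with limma adjusted p-values from 0.471 to 0.896, 0.497 to 0.940, 0.615 to 1 and 0.864 to 1. Muc1 did not pass the filter at a mean of 5 FPKM. Ltf reversed to -0.0048 under quantile normalization and ranged from -3.14 to 3.33 without 1 library. The number of the 10 genes past the filter, 5, was 10 without a filter, by construction. The number whose groups do not overlap, 4, was 5 under quantile normalization, where Csn3 was added, with both JNK_KO lines lower. This number was from 5 to 7 without 1 library, where 1 group is a single line. The median difference of the 5 tested genes, 1.04, was 0.55 without a filter, where the 5 low genes join. Without 1 library the list medians ranged from -0.95 to 2.56 for other milk secretory genes, -0.13 to 0.95 for the prolactin and STAT5 pathway, -0.17 to 0.19 for milk fat and -0.18 to 0.45 for lactose and transport. No read counts per library were used, so a value listed at 0 has no upper limit here.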

Other observations

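Genes of transport and mineral supply, singled out after their values were seen, differed between lines. Abcg2, the transporter that moves riboflavin and drugs into milk, was at 54.0 FPKM in WT-1, 4.999 in WT-2, 13.0 in KO-1 and 8.64 in KO-3. Pthlh, which encodes the parathyroid hormone-related protein secreted by the lactating gland, was at 0.792 FPKM in WT-1, 6.05 in WT-2, 3.55 in KO-1 and 5.63 in KO-3. The phosphate transporter gene Slc34a2 was under 1 FPKM in WT-1 and WT-2 (0.357 and 0.271) and in KO-1 (0.817), and was at 3.96 FPKM in KO-3, the line highest in Csn2 and Glycam1. The calcium pump gene Atp2b2, which secretes calcium into milk, was higher in both JNK_KO lines, at 0 FPKM in WT-1, 0.00215 in WT-2, 0.222 in KO-1 and 0.245 in KO-3, all under the level at which genes were tested.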
